A study of Homo sapiens with 19 samples.

Results

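The alpha class glutathione transferases are the part of the data described here, as the 4 genes GSTA1, GSTA2, GSTA3 and GSTA4 of the 34825 gene symbols in each table of the series. The family was chosen by earlier results of these data, namely the low GSTA2 values under the siRNAs against INO80. The members' values in the INO80 siRNA experiment are therefore given as a description with no test, and only other genes are tested there. The tests of the members come from the second experiment, whose libraries that choice did not use.

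Glutathione transferases join the tripeptide glutathione to reactive electrophiles, which makes them easier for the cell to export. The alpha class is abundant in liver, and its level in blood serves as a marker of hepatocyte injury. GSTA1 and GSTA2 are near copies of one another that also reduce lipid hydroperoxides. GSTA3 is best known for a double-bond isomerase step in steroid hormone synthesis, and GSTA4 prefers 4-hydroxynonenal, a toxic product of lipid peroxidation.

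All libraries were polyadenylated RNA of HepG2, a human liver cancer cell line, harvested 72 h after transfection with 50 nM siRNA. In the first experiment, 3 libraries each received the non-targeting siRNA (NTG), siINO80#1 or siINO80#2, the last 2 being different siRNAs against INO80, the ATPase of the INO80 chromatin remodelling complex. In the second, cells were kept in DMSO or in 1 µM EPZ-6438, a drug that blocks EZH2 (the enzyme that methylates histone H3 at lysine 27), from 3 days before transfection with NTG or with 1 siRNA against MCRS1, a subunit of the same complex. That experiment had 2 DMSO NTG, 3 DMSO siMCRS1, 3 EPZ-6438 NTG and 2 EPZ-6438 siMCRS1 libraries. A single siRNA against MCRS1 was used, and the labels do not say whether replicates were separate cultures, so the p-values measure only the spread between these libraries.

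INO80 was at 1264 ± 82.2 normalized counts in NTG, at 608 ± 31.3 with siINO80#1 and at 460 ± 21.7 with siINO80#2 (SD, n = 3 each), and MCRS1 was at 7.99% of NTG in DMSO and at 7.93% in EPZ-6438. Libraries held from 17093574 to 25369547 reads in the INO80 experiment and from 26038505 to 47397233 in the other. Of 10 hepatocyte markers, all 10 were detected in both experiments, and their log2 changes with siMCRS1 in DMSO lay between −0.21 and 0.67. With siINO80#2 4 of the 10 fell, to −0.98 at the lowest, and 1 rose, beside 28.4% of all genes lower and 26.6% higher. With siINO80#1 1 rose and 0 fell, where 20.7% of all genes were called higher and 20.8% lower. In EPZ-6438 with siMCRS1 1 rose and 1 fell, where 26.8% of all genes were called higher and 26.9% lower. The 6 fibroblast markers summed to between 347 and 368 normalized counts in DMSO NTG and to between 563 and 908 in DMSO siMCRS1, where COL1A1 was the one that passed the test, and the defining marker LUM was at 0.479 and 0.367. The fibroblast sum was also higher in EPZ-6438 siMCRS1, between 842 and 890 against 259 to 408 in EPZ-6438 NTG (COL1A1 2.91 on the log2 scale, adjusted p = 0.000267), and with siINO80#1, between 464 and 487 against 259 to 287 in NTG. With siINO80#2 the fibroblast sum was between 297 and 319, where PDGFRB changed by 0.46 (adjusted p = 0.0380) and COL1A1 by −0.63 (adjusted p = 0.0490). In DMSO NTG and DMSO siMCRS1 the endothelial sum was between 194 and 219 and between 176 and 248, with KDR at 0, and the immune sum lay between 52562 and 69462 and between 37776 and 59910, nearly all of it LYZ, with CD3E at 0. With siINO80#2 both sums were above NTG. The endothelial sum was between 281 and 340 against 207 to 245 (PECAM1 0.49, adjusted p = 0.00594). The immune sum was between 49196 and 56232 against 37000 to 40982 (LYZ 0.44, adjusted p = 0.00454). With siINO80#1 both sums overlapped NTG. The part of these cell type markers in the results below was not tested.

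The alpha class genes stand in 1 run of 245 kb on the minus strand of chromosome 6, in the order GSTA2, GSTA1, GSTA5, GSTA3 and GSTA4, with pseudogenes between them. The members the results turn on were GSTA2 (chr6:52750087-52763475), GSTA1 (chr6:52791371-52803816) and GSTA4 (chr6:52977953-52995284), all in RefSeq's GRCh38.p14. Their promoters, 250 bases before to 50 after the annotated start, are shown because GSTA1 and GSTA2 moved together and their windows are nearly the same. Capitals mark the 12 bases at which GSTA1 and GSTA2 differ. GSTA1 is chr6:52803767-52804066, GSTA2 is chr6:52763426-52763725 and GSTA4 is chr6:52995235-52995534, each read 5′ to 3′ on the minus strand.
GSTA1: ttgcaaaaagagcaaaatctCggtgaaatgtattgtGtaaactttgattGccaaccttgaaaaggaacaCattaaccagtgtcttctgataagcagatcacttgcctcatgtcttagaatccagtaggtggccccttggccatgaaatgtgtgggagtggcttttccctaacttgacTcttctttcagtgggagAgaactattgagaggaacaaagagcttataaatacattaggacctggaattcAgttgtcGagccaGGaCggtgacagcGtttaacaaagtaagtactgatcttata
GSTA2: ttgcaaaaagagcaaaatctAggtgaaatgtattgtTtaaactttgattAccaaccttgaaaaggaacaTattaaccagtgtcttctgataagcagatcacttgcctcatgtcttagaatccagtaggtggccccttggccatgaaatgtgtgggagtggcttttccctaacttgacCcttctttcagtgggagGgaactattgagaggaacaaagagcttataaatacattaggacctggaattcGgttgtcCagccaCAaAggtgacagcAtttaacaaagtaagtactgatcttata
GSTA4: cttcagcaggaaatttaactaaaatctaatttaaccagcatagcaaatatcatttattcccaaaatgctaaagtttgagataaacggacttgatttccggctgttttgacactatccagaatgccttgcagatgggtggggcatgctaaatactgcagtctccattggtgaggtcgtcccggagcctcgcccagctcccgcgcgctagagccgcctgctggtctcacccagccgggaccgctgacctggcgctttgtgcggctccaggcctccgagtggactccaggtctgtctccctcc

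The GSTA1 and GSTA2 windows were identical at 288 of 300 bases, or 96%, whereas GSTA4 aligned to GSTA1 at 59.7% identity and to GSTA2 at 53.0%. Both GSTA1 and GSTA2 held TATAAA 30 bases before the start and TTGCNNAA (a C/EBP site) 250 bases before it. On either strand, TATAAA was in 11.5% of 35116 RefSeq promoters of this length and TTGCNNAA in 10.5%. GSTA4 held neither of these and had TGACNNNGC (the core of the antioxidant response element) 9 bases before its start, as did 13.3% of promoters. TGANTCA, an AP-1 site, was in none of the 3 windows and in 7.71% of all promoters. Such matches describe the letters of these windows only.

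The likeness reaches into the transcripts, which bears on how reads were assigned. The longest reference transcripts of GSTA1 and GSTA2, 1218 and 1221 bases, were 95.2% identical, against 63.2% for GSTA1 and GSTA4. Cut into all words of 31 bases, 34.6% of the GSTA1 words were also in GSTA2, 56.5% were in GSTA1 alone and 64.1% of the GSTA2 words were in GSTA2 alone. All of the GSTA4 words, 100%, were found in GSTA4 alone. Reads of GSTA1 and GSTA2 can therefore be exchanged between the 2 rows, so that their split is uncertain, while GSTA4 is read on its own.

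Of the 4 members, 3 passed the filter of a mean of at least 10 normalized counts in each experiment, and each of these 3 had a mean above 10 in every group. GSTA3 had no read in the 9 libraries of the INO80 experiment and 1 read in 1 of the 10 others. A count of 0 allows up to 3 reads, which was at most 4.30 normalized counts in any library. GSTA5, the neighbouring gene that is no member, had no read in any of the 19 libraries. The alpha class of these HepG2 cells was thus read from GSTA1, GSTA2 and GSTA4.

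Per kilobase of the longest transcript, GSTA1 was the highest of the 3 in NTG at 369 ± 87.5 normalized counts, followed by GSTA4 at 271 ± 18.2 and GSTA2 at 250 ± 59.2 (SD, n = 3). The range of GSTA2, from 200 to 315, overlapped those of GSTA4, from 250 to 284, and GSTA1, from 315 to 470. Within each NTG library, though, GSTA1 was above GSTA2, at 321 against 200, 315 against 235 and 470 against 315. GSTA1 was also above GSTA4 in each of them, while GSTA2 and GSTA4 changed order in library C. In DMSO NTG the per-kilobase levels were 600 ± 33.0 for GSTA1, 571 ± 47.1 for GSTA4 and 372 ± 35.7 for GSTA2 (SD, n = 2). There GSTA1 and GSTA4 overlapped and GSTA2 lay below both. In every knockdown group of the INO80 siRNAs GSTA4 was the highest of the 3, between 137 and 159 per kilobase with siINO80#1 and between 114 and 121 with siINO80#2, above GSTA1 at 53.2 ± 8.24 and 28.7 ± 7.26. With siMCRS1 GSTA4 stood at 313 ± 81.0 and GSTA1 at 222 ± 45.1 in DMSO, and the libraries of the 2 genes overlapped there and in EPZ-6438. GSTA2 had the lowest mean in 6 of the 7 groups. The exception was EPZ-6438 NTG, where GSTA4 stood at 796 ± 84.0 and GSTA2 at 1045 ± 330.2, with overlapping libraries. Levels of the 2 experiments are not compared, since each table was scaled on its own.

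**Figure D1:**
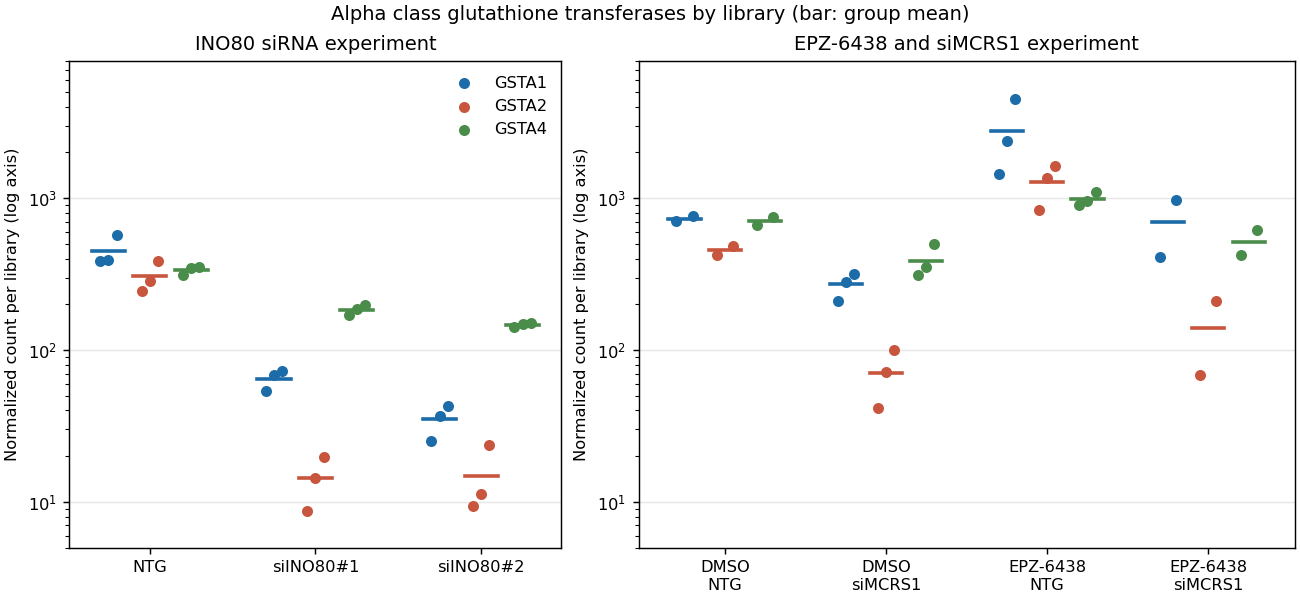
Normalized counts of GSTA1, GSTA2 and GSTA4 in each library (points, log axis) with group means (bars), the INO80 siRNA experiment on the left and the EPZ-6438 and siMCRS1 experiment on the right. GSTA2 lay between 8.75 and 23.7 in the 6 INO80 siRNA libraries and between 244 and 385 in NTG, and GSTA1 in EPZ-6438 NTG spread from 1441 to 4492.

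The first comparison asks how the family stood when INO80 was depleted. GSTA2 had normalized counts of 244, 286 and 385 in NTG, of 14.3, 19.8 and 8.75 with siINO80#1 and of 11.2, 23.7 and 9.45 with siINO80#2. Its 6 knockdown libraries were all far below the 3 NTG libraries, and the values of the 2 siRNAs were interleaved. GSTA2 means were 4.68% and 4.85% of NTG, log2 differences of −4.37 and −4.36 (SE 0.37 each), and the knockdown libraries held only 10 to 31 GSTA2 reads each. Since the family was chosen on this gene and contrast, these are the values of the choice and not a finding.

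GSTA1 stood at 391, 384 and 572 in NTG, at 72.7, 53.5 and 68.2 with siINO80#1 and at 42.6, 25.3 and 36.8 with siINO80#2. All libraries of either siRNA were below NTG, and those of siINO80#2 were below those of siINO80#1. The GSTA1 log2 differences from NTG were −2.76 and −3.65 (SE 0.23 each), means of 14.4% and 7.77% of NTG, and the difference of siINO80#2 from siINO80#1 was −0.89 (SE 0.23). The INO80 transcript was 48.1% of NTG with siINO80#1 and 36.4% with siINO80#2. GSTA2 did not show the order of GSTA1, its log2 difference between the siRNAs being 0.01 (SE 0.37). The test called 22.1% of all genes different between the 2 siRNAs. INO80 level and other effects of each siRNA cannot be told apart here.

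GSTA4 had 345, 310 and 352 in NTG, 187, 197 and 170 with siINO80#1 and 150, 148 and 141 with siINO80#2. The 3 groups did not overlap. The GSTA4 log2 differences were −0.86 and −1.19 (SE 0.10 each), and −0.33 (SE 0.10) between the siRNAs, so the lone member whose reads are shared with no other showed the smallest log2 difference. All 3 measured members were lower in every library of both siRNAs, a pattern seen in 29.5% and 31.4% of all 14034 genes, and the limma test called 20.8% and 28.4% of all genes lower with siINO80#1 and siINO80#2. Summing the 4 rows in each library gave −2.03 and −2.46 (SE 0.12 each), a value free of how reads were divided between GSTA1 and GSTA2. In bulk RNA, fewer cells with a transcript and less of it per cell cannot be told apart.

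The second comparison asks how the family responded to MCRS1 depletion in DMSO, in libraries that the choice of the family did not use. GSTA1, GSTA2 and GSTA4 fell together, and GSTA2 had the largest log2 change. GSTA2 had 484 and 423 normalized counts in DMSO NTG and 100, 71.6 and 41.5 in DMSO siMCRS1. The 2 control libraries were more than 4 times above the highest knockdown library, and GSTA2 changed by −2.74 on the log2 scale (SE 0.47, adjusted p = 0.000797), a mean of 15.7% of control.

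GSTA1 had 703 and 760 in DMSO NTG and 283, 318 and 211 in DMSO siMCRS1. The groups were well separated, at a mean of 37.0% of control and a log2 change of −1.45 (SE 0.43, adjusted p = 0.0175). That call was lost in 3 of the 10 fits that leave out 1 library, at adjusted p = 0.0704 and 0.0772 without DMSO NTG 1 or 3 and at 0.0534 without DMSO siMCRS1 3.

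GSTA4 had 750 and 667 in DMSO NTG and 502, 352 and 311 in DMSO siMCRS1. Its knockdown libraries were all below both controls, with a mean of 54.8% and a log2 change of −0.89 (SE 0.21, adjusted p = 0.00573), a call lost without DMSO NTG 1 (adjusted p = 0.0523). Each of the 3 members was lower in 3 of 3 knockdown libraries than in both controls. The test called 24.6% of all 14312 genes lower in this comparison, and 33.5% had all knockdown libraries below all controls. The summed rows of the family changed by −1.40 (adjusted p = 0.00600). INO80 itself was slightly lower with siMCRS1, at 83.0% of control (log2 −0.27, SE 0.10, adjusted p = 0.0387).

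The same siRNA was also given in EPZ-6438, and the members fell there too. GSTA2 had 1362, 836 and 1628 in EPZ-6438 NTG and 211 and 68.3 in EPZ-6438 siMCRS1. Control and knockdown were widely apart, at −3.34 (SE 0.47, adjusted p = 0.000177), although the 2 knockdown libraries differed 3-fold from each other. GSTA1 had 2393, 1441 and 4492 against 975 and 413. The lowest control was above the higher knockdown library, and the log2 change of GSTA1 was −1.97 (SE 0.43, adjusted p = 0.00289).

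GSTA4, the steadiest of the 3, had 1100, 895 and 965 in EPZ-6438 NTG against 614 and 421 in EPZ-6438 siMCRS1. Its log2 change was −0.95 (SE 0.21, adjusted p = 0.00337), lost without EPZ-6438 siMCRS1 B (adjusted p = 0.0539). The means were 11.0%, 25.0% and 52.5% of control for GSTA2, GSTA1 and GSTA4, the same order as in DMSO. In this comparison 26.9% of all genes were called lower, and 34.8% had both knockdown libraries below all controls. The libraries of the DMSO and EPZ-6438 comparisons are different ones, but they were tested in 1 fit with 1 estimate of the spread.

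**Figure D2:**
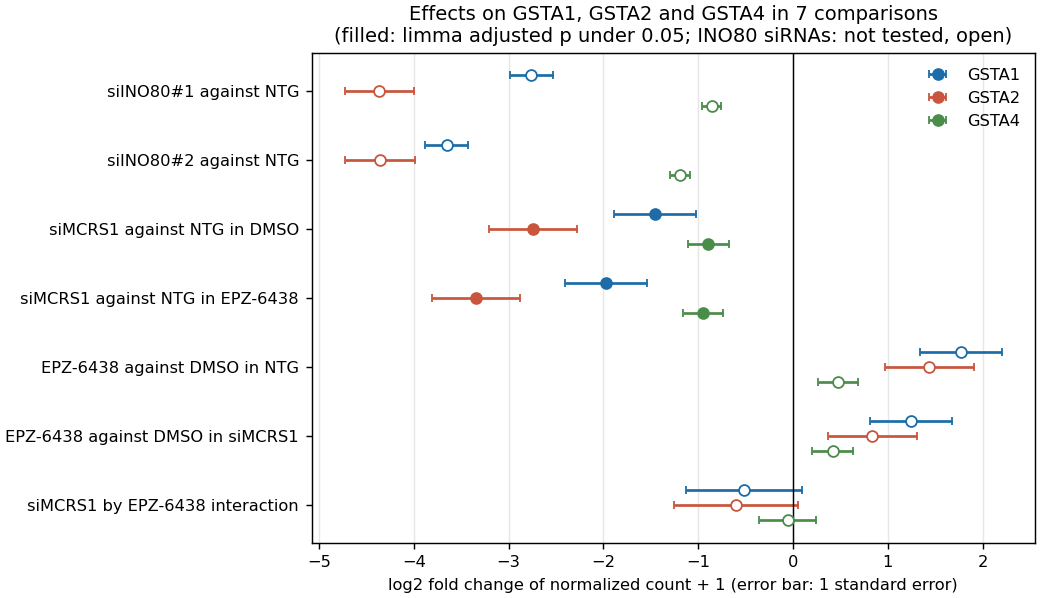
Log2 differences of GSTA1, GSTA2 and GSTA4 with 1 standard error (horizontal bars) in 7 comparisons, filled where limma's adjusted p was under 0.05. The siMCRS1 changes ran from −3.34 for GSTA2 in EPZ-6438 to −0.89 for GSTA4 in DMSO, and the EPZ-6438 and interaction values were all open.

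The third comparison asks what EPZ-6438 did to the family. GSTA1, GSTA2 and GSTA4 were each higher in all 3 EPZ-6438 NTG libraries than in both DMSO NTG libraries, but none of the 3 passed limma's test. The call depended on the fit, since DESeq2 called GSTA1 (adjusted p = 0.0177), the fit of only these groups called GSTA2 (adjusted p = 0.0475), and a block on the column number, chosen after seeing the data, called GSTA1 and GSTA2 (adjusted p = 0.0350 and 0.0401). The means were 3.80-fold, 2.81-fold and 1.39-fold those of DMSO NTG, with log2 differences of 1.77 for GSTA1 (SE 0.43, adjusted p = 0.0954), 1.44 for GSTA2 (SE 0.47, adjusted p = 0.168) and 0.47 for GSTA4 (SE 0.21, adjusted p = 0.289). Of all genes, 16.4% had every EPZ-6438 NTG library above both DMSO NTG libraries, and the test called 0.321% higher. GSTA1 in particular varied 3-fold among the EPZ-6438 NTG libraries, and without EPZ-6438 NTG 3, its highest library, the mean log2 difference was 1.34.

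With siMCRS1 in both arms, EPZ-6438 gave 2.57-fold, 1.97-fold and 1.33-fold the DMSO means for GSTA1, GSTA2 and GSTA4. GSTA1 was above all DMSO siMCRS1 libraries in both EPZ-6438 siMCRS1 libraries, as were 11.9% of all genes, while GSTA2 and GSTA4 overlapped. The log2 differences of 1.25, 0.84 and 0.42 had adjusted p = 0.392, 0.661 and 0.614, in a comparison where 0.0838% of all genes were called higher. Whether siMCRS1 acted differently in EPZ-6438 than in DMSO was tested by the interaction, which was −0.52 for GSTA1 (SE 0.61), −0.60 for GSTA2 (SE 0.66) and −0.06 for GSTA4 (SE 0.30), each with adjusted p = 1.00. Of all genes, 0% passed limma's interaction test, 336 had an unadjusted p under 0.05, edgeR called 0 and DESeq2 called 5. With standard errors of 0.30 to 0.66, a difference of the size seen was not detectable here.

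Since GSTA1 and GSTA2 share sequence, their split was followed within each library, where scaling plays no part. GSTA2 took 38.4%, 42.7% and 40.2% of the GSTA1 and GSTA2 reads in NTG. The share was 16.4%, 27.0% and 11.4% with siINO80#1 and 20.8%, 48.4% and 20.4% with siINO80#2, where the libraries held only 48 to 88 such reads. The siINO80#1 libraries were all below NTG, and the siINO80#2 libraries lay on either side of it, with a 95% Wilson interval of 36.6% to 60.4% for the high one. These intervals cover counting error only.

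In DMSO NTG the GSTA2 share was 40.8% and 35.8%, and in DMSO siMCRS1 it was 26.2%, 18.4% and 16.5%. It was 36.3%, 36.7% and 26.6% in EPZ-6438 NTG and 17.8% and 14.2% in EPZ-6438 siMCRS1. Knockdown libraries were below their controls in both arms. EPZ-6438 NTG 3 stood apart at 26.6% (95% Wilson interval 25.5% to 27.8%), and was also the library with the most GSTA1. The sum of both genes, which does not depend on the split, was 1185 ± 3.37 normalized counts in DMSO NTG (SD, n = 2) and 342 ± 77.6 in DMSO siMCRS1 (SD, n = 3).

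**Figure D3:**
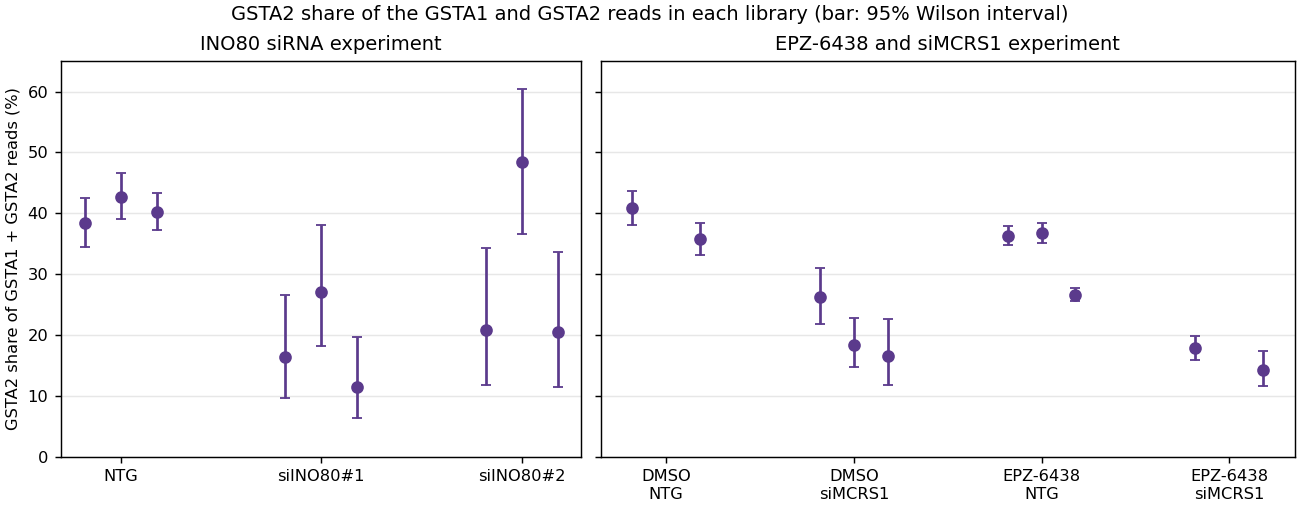
Share of GSTA2 in the GSTA1 and GSTA2 reads of each library (points) with 95% Wilson intervals (bars), which are wide in the INO80 siRNA libraries because few reads are left. The share was 35.8% to 42.7% in NTG without EPZ-6438 and 14.2% to 26.2% with siMCRS1.

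The genes around the cluster moved in both directions with siMCRS1. Within 1 megabase of either end of the alpha class run, RefSeq holds 17 protein-coding genes, of which 15 were in the table and 13 were tested with siMCRS1. In DMSO 4 of the 13 fell and 2 rose, where the test called 24.6% of all genes lower and 23.1% higher. Among the genes that fell were PAQR8 (−0.88), FBXO9 (−0.86) and TMEM14A (−0.86), and those that rose were GCLC (1.41) and ICK (0.48). TMEM14A and ICK are the nearest tested protein-coding neighbours on the 2 sides. The median of the 13 was 0.01, beside 0.00 over all genes tested. In EPZ-6438 7 of the 13 fell and 3 rose, where 26.9% of all genes were called lower and 26.8% higher. The median of the 13 was −0.76 there, beside 0.01 over all genes. PKHD1, 1 of the 7, averaged 27.5 normalized counts in EPZ-6438 NTG and 7.11 in EPZ-6438 siMCRS1. Its means were 2.39 in DMSO NTG and 1.48 in DMSO siMCRS1. It passed the filter only through EPZ-6438 NTG, the control of this comparison, which favours a fall, so its call is no test. Both the count of 7 and the median of −0.76 include PKHD1. Without it the median would lie between KLHL31 (−0.76) and TRAM2 (−0.00), so no fall of the region is read from it.

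**Figure D4:**
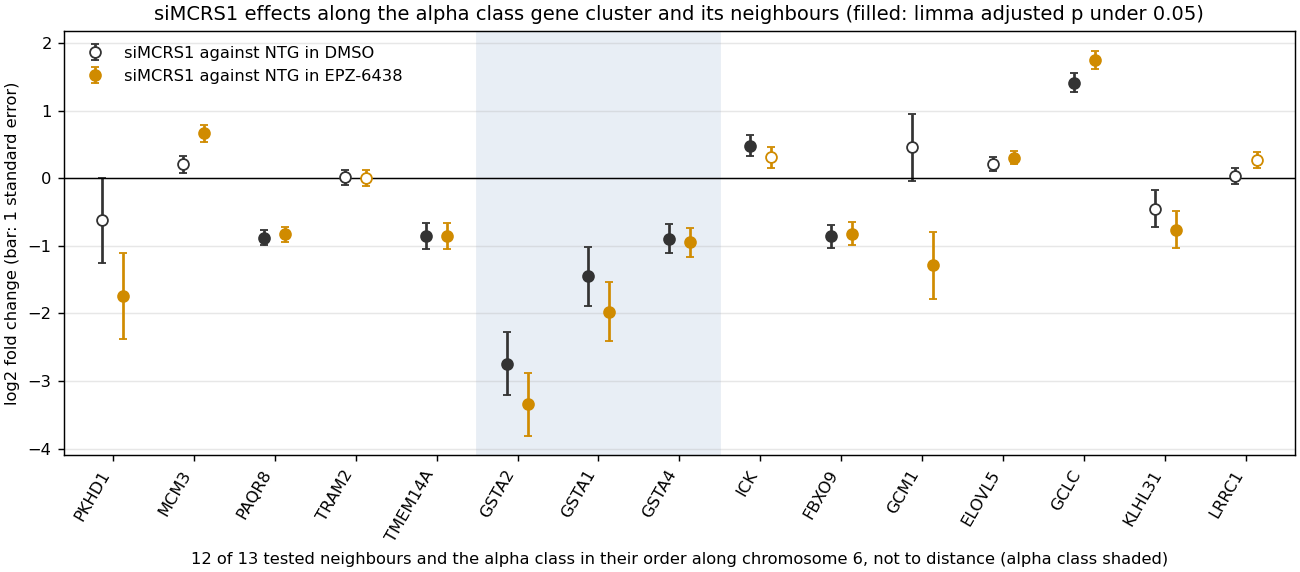
Log2 changes with siMCRS1, with 1 standard error, for 12 of the 13 tested protein-coding genes within 1 megabase of the alpha class run, in gene order and not to distance, in DMSO (dark) and in EPZ-6438 (orange), filled where limma's adjusted p was under 0.05. The shaded alpha class genes lay between −3.34 and −0.89, and GCLC, farther along, lay at 1.41 in DMSO.

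Other glutathione transferase genes were read as well. Those tested were of the mu, theta, zeta, kappa, omega and microsomal classes, with GSTCD, which is of none of these classes. Of 19 listed, 14 were tested, and 8 fell and 0 rose with siMCRS1 in DMSO, with a median log2 change of −0.54, where 24.6% of all genes were called lower and 23.1% higher. The 3 largest changes past the threshold were in GSTZ1 (−1.49), which also isomerizes a tyrosine breakdown product, in the mu class GSTM4 (−1.31) and in the peroxisomal and mitochondrial GSTK1 (−1.16). GSTZ1, for example, stood at 478 ± 34.9 normalized counts in DMSO NTG (SD, n = 2) and 172 ± 37.6 in DMSO siMCRS1 (SD, n = 3). The medians of the 3 alpha members and of the 14 others were −1.45 and −0.54.

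In EPZ-6438, 7 of the 14 fell with siMCRS1 and 0 rose, where 26.9% of all genes were called lower and 26.8% higher. With siINO80#1 9 fell and 0 rose, at a median of −0.47, and with siINO80#2 11 fell and 0 rose, at a median of −0.81. Over all genes those comparisons called 20.8% and 28.4% lower and 20.7% and 26.6% higher. Under EPZ-6438 in NTG their median was 0.35.

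Transcripts for the supply of the cosubstrate were read from 28 tested genes of glutathione synthesis, recycling and export, and glutathione itself was not measured. Of the 28, 7 rose and 10 fell with siMCRS1 in DMSO. The test called 23.1% of all genes higher and 24.6% lower in this comparison, so the count that rose was near its share and the count that fell was above it. GCLC, the catalytic subunit of the rate-limiting ligase of glutathione synthesis, rose from 5763 ± 204 to 15513 ± 2852 normalized counts (log2 1.41, adjusted p = 3.69e-05). Its modifier subunit GCLM rose by 0.98, and so did SLC7A11 (1.27), the cystine importer, and GLO1 (1.08), the glutathione-dependent glyoxalase. The largest falls were in DPEP1 (−2.57), GGT6 (−1.97) and GGT5 (−1.14), of which DPEP1 is a dipeptidase that splits cysteinylglycine outside the cell. The next enzyme of synthesis after GCLC, GSS, fell by 0.89 on the log2 scale.

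Enzymes that handle 4-hydroxynonenal, the preferred substrate of GSTA4, were taken as another list. Of 10 tested with siMCRS1 in DMSO, 3 fell and 2 rose, near the 24.6% and 23.1% of all genes called lower and higher. ALDH3A1 (−2.05), AKR7A2 (−1.46) and ALDH3A2 (−0.34) fell, and ALDH1A1 (0.61) was among those that rose. With siINO80#1 8 of 9 tested fell and 0 rose, and with siINO80#2 6 of 9 fell and 0 rose. Over all genes those comparisons called 20.8% and 28.4% lower and 20.7% and 26.6% higher. Among the tested genes PTGR1, which reduces the double bond of 4-hydroxynonenal, changed the most in both siRNA groups, by −1.41 and −1.52. ALDH3A1 missed the filter there, at means of 18.8 in NTG, 4.45 with siINO80#1 and 3.87 with siINO80#2.

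NRF2, encoded by NFE2L2, is the activator of many genes of the oxidative stress response, and its known targets were taken as a list of 20. Of 19 tested, 9 rose and 1 fell with siMCRS1 in DMSO, at a median of 0.34, where 23.1% of all genes were called higher and 24.6% lower. The largest rises were in GCLC (1.41), SLC7A11 (1.27) and TXNRD1 (1.00), a thioredoxin reductase, and the 1 that fell was BLVRB (−1.49), biliverdin reductase B. GCLC, GCLM and SLC7A11 are in this list and in the one before. With siINO80#1 2 of the 19 rose and 12 fell, and with siINO80#2 2 rose and 13 fell. Over all genes those comparisons called 20.7% and 26.6% higher and 20.8% and 28.4% lower. GSTA1, GSTA2 and GSTA4 were lower with siMCRS1 in DMSO and with both INO80 siRNAs, but the family was chosen on the INO80 siRNA values. The part of NRF2 in the members' values was not tested.

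**Figure D5:**
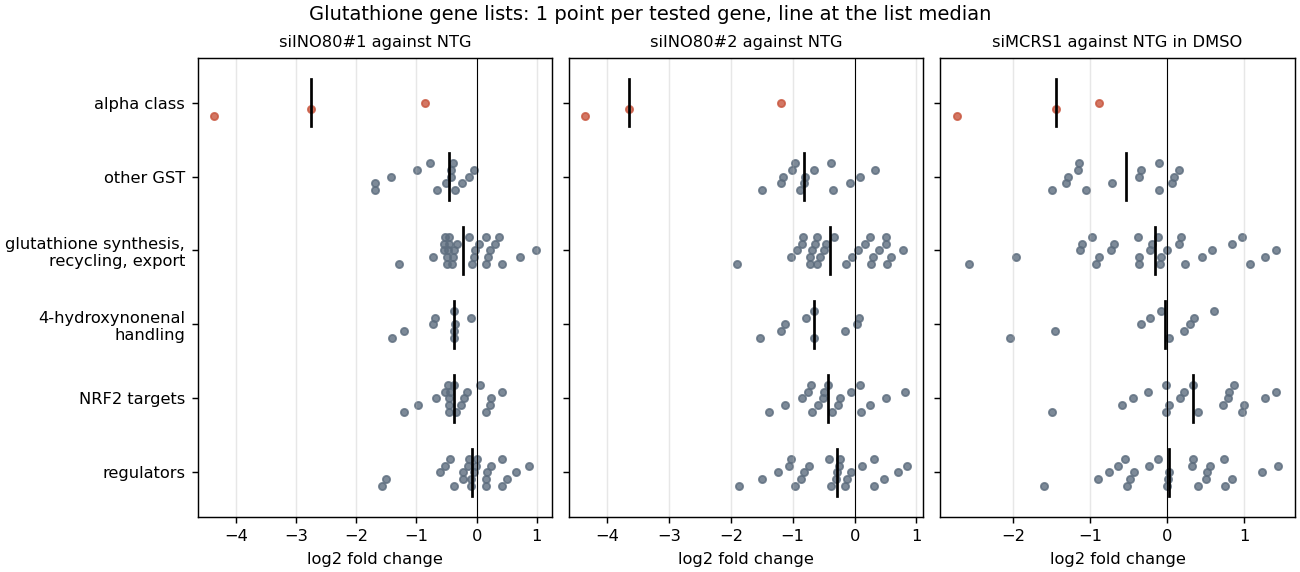
Log2 differences of each tested gene (points) of the alpha class and of 5 gene lists with siINO80#1, siINO80#2 and siMCRS1 in DMSO against NTG, with the list median (line). The alpha class medians were −2.76, −3.65 and −1.45, and the NRF2 target median was 0.34 with siMCRS1 but −0.37 and −0.42 with the INO80 siRNAs. The family was chosen on the INO80 siRNA values, so its points there are a description only.

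Of 24 regulators of liver genes or of this gene family, 10 rose and 8 fell with siMCRS1 in DMSO, where 23.1% of all genes were called higher and 24.6% lower. The largest rises were in AHR (1.45), the aryl hydrocarbon receptor, in MAFK (1.24), a small MAF partner of NRF2, and in MAFF (0.85). NFE2L2 rose by 0.40 and its inhibitor KEAP1 by 0.33. The largest falls were in NR1I3 (−1.60), the xenobiotic receptor CAR, in ONECUT1 (−0.90) and in NR5A2 (−0.76).

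Among factors known to act on alpha class promoters, HNF4A changed by −0.55 with siMCRS1 in DMSO (adjusted p = 0.0165), CEBPA by −0.64 (adjusted p = 0.00896) and the xenobiotic receptor NR1I2 by −0.49 (adjusted p = 0.00963). With the INO80 siRNAs, HNF4A changed by −0.45 and −1.02, both past the test, and CEBPA by −0.23 (adjusted p = 0.580) and −1.87 (adjusted p = 0.000355). Under EPZ-6438 in NTG 1 of the 24 passed, NR5A2, which rose by 1.42 (adjusted p = 0.0298). Over all genes that comparison called 0.321% higher and 0.0629% lower.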

How the data were processed

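RNA-seq of HepG2 cells was deposited as 2 tables of normalized counts, 1 for the INO80 siRNAs (9 libraries) and 1 for EPZ-6438 and siMCRS1 (10 libraries). Stranded mRNA libraries were made per the labels, and the submitters' processing notes name kallisto, DESeq2 and GRCh38 with no versions; the annotation and strand setting are not given in the sources used here. The deposited values are a signal in which each library's reads were divided by 1 size factor by the authors. All values (100%) were whole multiples, within 0.01, of 1 read, which gave back reads and depth. If kallisto's estimates were rounded before scaling, these reads are estimates, and close paralogs share them.

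Members and lists were chosen with earlier results of these data known. Groups followed the labels, and each table was analysed on its own. Genes averaging 10 or more normalized counts were kept, log2(value + 1) was fitted with limma 3.58.1 (lmFit, eBayes with trend, R 4.3.3) over all libraries of a table, and p-values were adjusted by Benjamini-Hochberg (threshold 0.05). Fold changes are on that scale and understate those of low genes. Alternatives were other pseudocounts and filters, equal totals, quantile normalization, edgeR 4.0.16 and DESeq2 1.42.0 on the recovered reads, only the groups compared, a replicate block, the 4 rows summed, and each library left out. The fits were tested on simulated data. No pair of libraries of a group was a duplicate, with chi-square per degree of freedom of 9.45 to 121 over 17 pairs. Promoters and coordinates are from RefSeq GRCh38.p14, and transcripts from GENCODE release 44, 31-base words being compared in Biopython 1.88. By rule the text names the members, the targeted genes, the 3 genes most like each member, and from each list the 3 largest changes in each direction past the threshold for siMCRS1 in DMSO, with GCLC, GCLM, GSTA5, HNF4A, CEBPA, NFE2L2, KEAP1 and NR1I2 in any case; GSS, PTGR1 and GSTA7P were singled out after their values were seen. A few genes that the rule names are not reported here.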

Additional observations from a re-analysis of the deposited data

How the results depend on the processing

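The direction of every member against NTG with INO80 siRNAs or siMCRS1 was the same under all alternatives run. Leaving out 1 library, the siMCRS1 change in DMSO ranged from −1.58 to −1.28 for GSTA1 and from −1.09 to −0.75 for GSTA4, and in EPZ-6438 from −1.22 to −0.68 for GSTA4, with the lost calls given above. GSTA2 kept its siMCRS1 call in all 10 such fits of each arm. With the 4 rows summed, the family's log2 difference was −2.03, −2.46 and −0.43 for siINO80#1, siINO80#2 and the latter against the former. Equal totals gave GSTA4 −1.30 with siINO80#2, and moved the median of all genes by −0.23 and −0.24 with siMCRS1 in DMSO and EPZ-6438. For EPZ-6438 in NTG, GSTA1 was called by DESeq2 (1.93, adjusted p = 0.0177) and GSTA2 with only the groups compared (1.44, adjusted p = 0.0475). The interaction ranged over left-out libraries from −1.14 to 0.10 for GSTA1, from −1.41 to 0.21 for GSTA2 and from −0.33 to 0.22 for GSTA4. The cause of these changes was not tested.

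Of 9 same-letter library pairs in the INO80 experiment 5 had deviations that correlated over 0.1, at a mean r of 0.10. Among pairs with different letters 2 of 18 did, at a mean r of −0.05. Deviations from the group mean cancel within each group, so a higher r in same-letter pairs forces a lower one in the others. Libraries of the same letter may thus share structure, which the main fit, on group only, did not use. The replicate block gave 6327 and 8127 genes past the threshold in place of 5833 and 7725 and left the members' values as they were. Of 7 pairs of libraries with the same column number in the second experiment 6 correlated over 0.1, against 7 of the 30 other pairs. In groups of 2 libraries the deviations are mirror images, so these are not separate pairs. There a replicate block on the column number, chosen after seeing the data and without EPZ-6438 siMCRS1, whose columns carry letters, called GSTA1 (1.90, adjusted p = 0.0350) and GSTA2 (1.55, adjusted p = 0.0401) for EPZ-6438 in NTG, with 1161 genes past the threshold in place of 55, and 8007 in place of 6830 for siMCRS1 in DMSO.

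The count of 55 genes was 20 with no filter, 85 with quantile normalization, 19 with no trend, 721 by DESeq2, 128 with only the groups compared, and 2 to 71 without 1 library. For EPZ-6438 with siMCRS1 the count of 13 was 4 with no filter, 7 with no trend, 149 by DESeq2, 3 with only the groups compared and 0 to 26 without 1 library. The interaction count of 0 was 5 by DESeq2 and 0 to 3 without 1 library. Leaving out 1 library gave 1948 to 3481 genes between the INO80 siRNAs (3096 with all) and 5070 to 7600 for siMCRS1 in EPZ-6438 (7686 with all).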

Other observations

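GSTA7P, a transcribed pseudogene beside GSTA2 that is no member, was singled out after its values were seen. It had 10, 12 and 24 reads in NTG, 0 in each siINO80#1 library and 1, 2 and 0 with siINO80#2. In the second experiment it had 32 and 31 reads in DMSO NTG and 3, 3 and 1 in DMSO siMCRS1, a log2 difference of −3.12. It had 79, 32 and 40 in EPZ-6438 NTG against 8 and 2 in EPZ-6438 siMCRS1 (−3.29). GSTA7P passed the filter of 10 only through NTG, at means of 30.1 in DMSO and 50.0 in EPZ-6438, against 2.69 and 4.09 with siMCRS1. Its values are therefore a description and no test. Of its 31-base words, 6.22% were shared with GSTA1 and 4.07% with GSTA2.

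The genes most like each member across libraries were ranked among 13533 by the lower of the Pearson r of the 9 and the 10 libraries, which share their groups. For GSTA1 the first 2 were ACSM3 (0.964) and FAM126A (0.964). For GSTA2 the first 3 were LGALS2 (0.978), SPATA18 (0.976) and BPHL (0.976). For GSTA4 the first 3 were PIPOX (0.979), which oxidizes sarcosine and pipecolate, DDC (0.978), the aromatic amino acid decarboxylase, and RGN (0.977). GSTA2 ranked 23 for GSTA1, and GSTA1 ranked 225 for GSTA2.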
